A study of Sus scrofa with 8 samples.

Results

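The complement system of the pig oviduct was examined through 9 genes chosen by name: the components C1S, C2, C3 and CFB, the secreted regulators SERPING1 and CLU, and the cell surface regulators CD46, CD55 and CD59. A probe set, the group of probes that reads 1 transcript on an Affymetrix Porcine array, was taken as a member when the platform annotation gave it a single gene symbol and that symbol was 1 of the 9. All 9 genes were found, on 17 of the 24123 probe sets deposited, whose single symbols name 6765 distinct genes. CD55 had 5 probe sets, CD46 had 3, CFB and CD59 had 2 each, and the other genes had 1. Probe sets of 1 gene read the same RNA and are not replicates of each other, and they are named here by the order of their average signal.

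The study asked whether the oviduct responds differently to spermatozoa that carry an X chromosome and to those that carry a Y chromosome. Weaned crossbred Landrace × Large White sows, multiparous and close to ovulation, received flow-sorted X-spermatozoa in one oviduct and Y-spermatozoa in the other by laparoscopy, after both uterine horns had been cut with staples. The semen came from several boars, and the cells scraped from the lining were taken 24 h later, so each of the 4 sows gave 1 array of each kind (X1 to X4 and Y1 to Y4, where arrays of the same number were taken as the same sow). Both groups therefore carried sorted and stained spermatozoa and had the same surgery, no oviduct without spermatozoa was among the arrays, and the sperm type and the side of the tract it was placed in cannot be told apart within a sow.

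Complement is a cascade of plasma proteases and their substrates. C1S, the protease of the first component, cleaves C4 and C2 in the classical pathway, C2 and factor B (CFB) supply the proteolytic subunits of the enzymes that cleave C3, and C3 fragments then coat a target and lead on to the pore of the membrane attack complex. Host cells are shielded by SERPING1, the C1 inhibitor, by clusterin (CLU), which binds the forming pore in fluid, by CD46, a cofactor for the cleavage of C3b and C4b, by CD55, which breaks up the C3-cleaving enzymes, and by CD59, which blocks the last step of the pore. Spermatozoa carry CD46, CD55 and CD59, and clusterin is a constituent of genital tract fluids, so these genes are often discussed as protection of spermatozoa in the female tract.

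Values are the linear signals that the authors deposited, given per array, and differences are on the log2 scale after quantile normalisation, Y-spermatozoa minus X-spermatozoa. Probe sets with no pig target set the background of each array, 8.5 to 12.3 signal units, and all 17 member probe sets lay above it on average. Each array's median signal lay between 38.7 and 41.2. The oviduct glycoprotein OVGP1, which defines the secretory lining of the oviduct, read 5841.4 to 9314.9 and the epithelial adhesion molecule EPCAM 2890.5 to 3805.0, and all 12 measured genes of the lining epithelium list were above background. The stroma and smooth muscle list was read too, with 10 of 10 measured genes above background, so the scrapings were not epithelium alone. In such bulk tissue, fewer cells of a type and less RNA per cell cannot be told apart. Signals of different probe sets were not set against each other, because each probe set binds with its own strength.

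The limma method fits each probe set separately and moderates its variance with information from all probe sets. In limma, 2 of the 17 member probe sets passed an unadjusted p of 0.05: C2 was higher and the dimmest CD55 probe set was lower in the Y-spermatozoa oviducts. Over all 23999 probe sets tested, 855 passed, which is 3.56%, and 0 passed after Benjamini-Hochberg adjustment (0.00%). No member had an adjusted p under 1, so none of the differences given here holds after correction for the number of probe sets. By an exact two-sided permutation test of each probe set over the 8 arrays, chosen after the data had been seen, 0 of the 17 passed, where the smallest p that 4 arrays against 4 allow is 0.0286. The p beside each difference is from that exact test unless limma is named. Neither that test nor the main limma fit took the pairing of the oviducts by sow into account. The median difference was -0.01 over the 17 member probe sets and 0.09 over the brightest probe set of each gene, against 0.00 over all probe sets. The same direction in all 4 sows was seen for 3 member probe sets, SERPING1 upward and 2 of CD55 downward, and 13.2% of all probe sets did so in either direction.

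**Figure D1:**
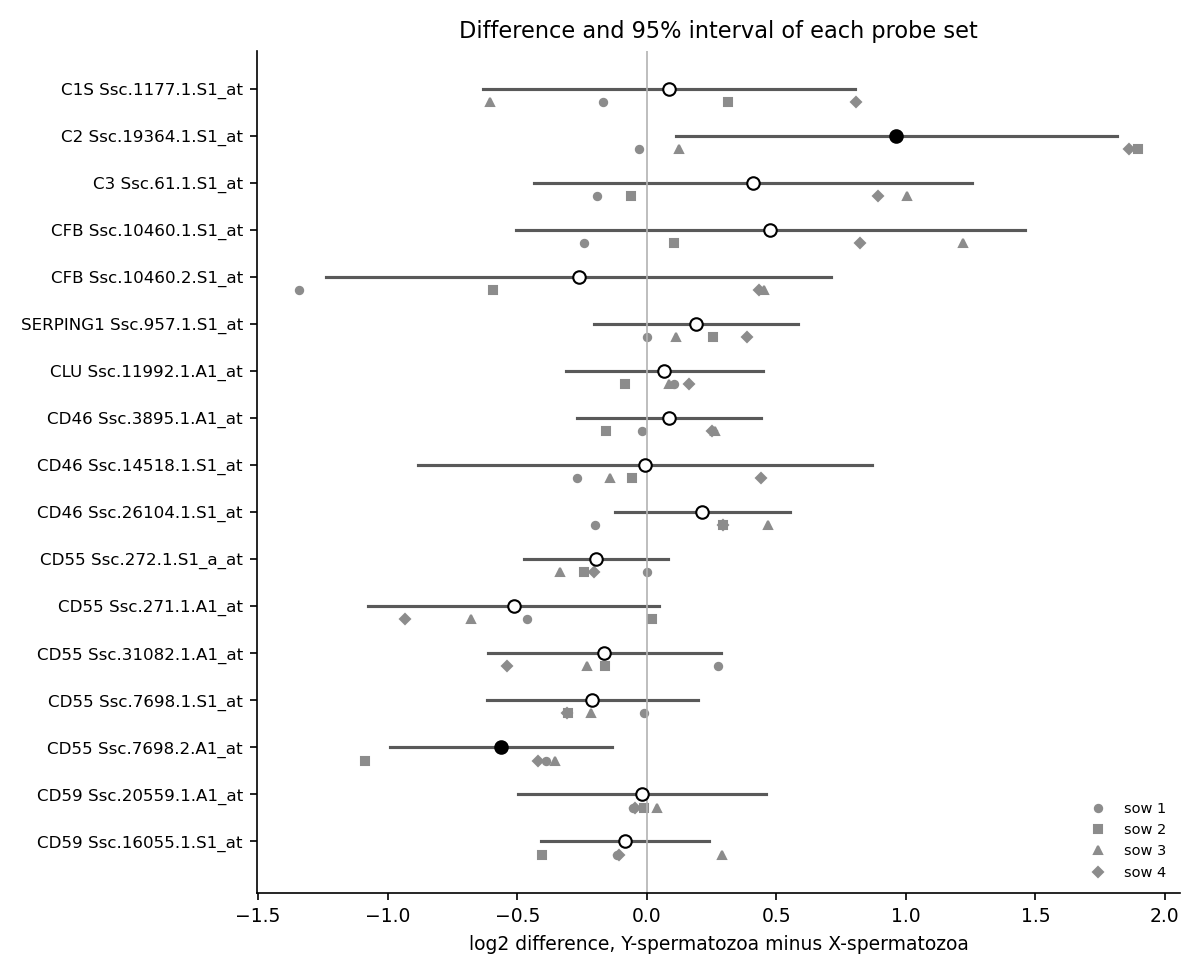
Log2 difference, Y-spermatozoa minus X-spermatozoa, of each of the 17 member probe sets after quantile normalisation (horizontal axis); the large symbol is the mean with its 95% interval from limma, filled where the unadjusted p was under 0.05, and the small grey symbols are the 4 sows. C2 lies to the right of 0 at 0.96, and all 5 CD55 probe sets lie to the left, between -0.56 and -0.16.

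Of the early components of the classical pathway, C2 read higher after Y-spermatozoa in limma and C1S did not pass the test. The C2 signal was 13.9, 5.4, 12.8 and 5.6 in X1 to X4 and 12.9, 18.3, 13.1 and 19.6 in Y1 to Y4. The means were 9.43 ± 4.56 and 15.98 ± 3.48 (SD, n = 4), and the groups overlapped, because sows 1 and 3 had nearly equal oviducts. X2 and X4 were below background and no Y array was, and the rise lay in those 2 sows, with 1.89 in sow 2, 1.86 in sow 4, -0.03 in sow 1 and 0.12 in sow 3. The log2 difference was 0.96 (SE 0.37, 95% interval 0.11 to 1.82). It passed in limma without the sow (unadjusted p = 0.0315) and with the sow as a random block (p = 0.0272), and did not pass with the sow as a fixed block (p = 0.0878) or in the exact permutation test (p = 0.0857). When signals under the background were raised to it, the difference was 0.38 and missed the threshold, so the size of the C2 difference rests on readings near the limit of detection.

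C1S read 180.6, 255.9, 237.9 and 125.3 after X-spermatozoa and 161.2, 319.2, 155.3 and 219.9 after Y-spermatozoa. Its 4 brightest arrays were X2, X3, Y2 and Y4, 2 of each group, and the sows went opposite ways: sows 2 and 4 were higher by 0.31 and 0.81 on the Y side, while sows 1 and 3 differed by -0.17 and -0.61. The mean difference was 0.09 (SE 0.31, 95% interval -0.63 to 0.80, exact p = 0.743). The same 4 arrays were the brightest for 6 of the 10 stroma and smooth muscle genes (DCN, PDGFRB, ACTA2, DES, TAGLN and CNN1), against 3.68% of all probe sets above background. They were also the brightest for 3 of the 20 other complement genes above background: C1R, the partner protease of C1S, C4BPA and ITGB2. PECAM1 of the endothelium list and CD163 of the leukocyte list had the same 4 brightest arrays. ACTA2, smooth muscle actin, read 1178.8, 3359.0, 3148.3 and 1925.5 in X1 to X4 and 766.5, 2562.3, 1111.4 and 2651.0 in Y1 to Y4. Summed signal of the 10 stroma genes ran from 6255 to 10123.9 in the X arrays and from 4452.9 to 10501.4 in the Y arrays. The part of the stromal share in the C1S signal was not tested.

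C3, the protein on which all complement pathways meet, and CFB, the protease of the alternative pathway, did not pass the test between sperm types, but they went up and down together from array to array. C3 read 1070.3, 1629.8, 971.8 and 1669.8 in X1 to X4 and 978.1, 1574.4, 1924.5 and 3419.1 in Y1 to Y4, a 3.52-fold span from X3 to Y4. The means were 1335 ± 366 and 1974 ± 1040 (SD, n = 4), and the groups overlapped. The Y side was higher by 1.01 in sow 3 and 0.89 in sow 4, while sows 1 and 2 differed by -0.19 and -0.06, giving a difference of 0.41 (SE 0.36, 95% interval -0.44 to 1.26, exact p = 0.40). Without Y4 the C3 difference was 0.13 and without Y1 it was 0.70, and neither passed in limma.

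The brighter CFB probe set read 178.9, 275.6, 154.8 and 315.5 after X-spermatozoa and 151.6, 295.6, 358.4 and 567.7 after Y-spermatozoa. As with C3, Y4 was the highest array, and sows 3 and 4 carried the higher Y readings, with 1.22 and 0.83 against -0.24 in sow 1 and 0.10 in sow 2. The difference was 0.48 (SE 0.42, 95% interval -0.51 to 1.46, exact p = 0.371). Single arrays moved this value: it was 0.82 without Y1, which passed the unadjusted threshold in limma, 0.30 without X3 and 0.19 without Y4. The dimmer CFB probe set read 21.4, 25.2, 22.3 and 25.4 against 8.1, 15.8, 29.6 and 33.4, with Y1 below background. Its X arrays lay close together and its Y arrays on both sides of them, and the difference was -0.26 (SE 0.42, exact p = 0.714), so the 2 CFB probe sets differed in sign, although sows 3 and 4 were higher on the Y side in both.

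**Figure D2:**
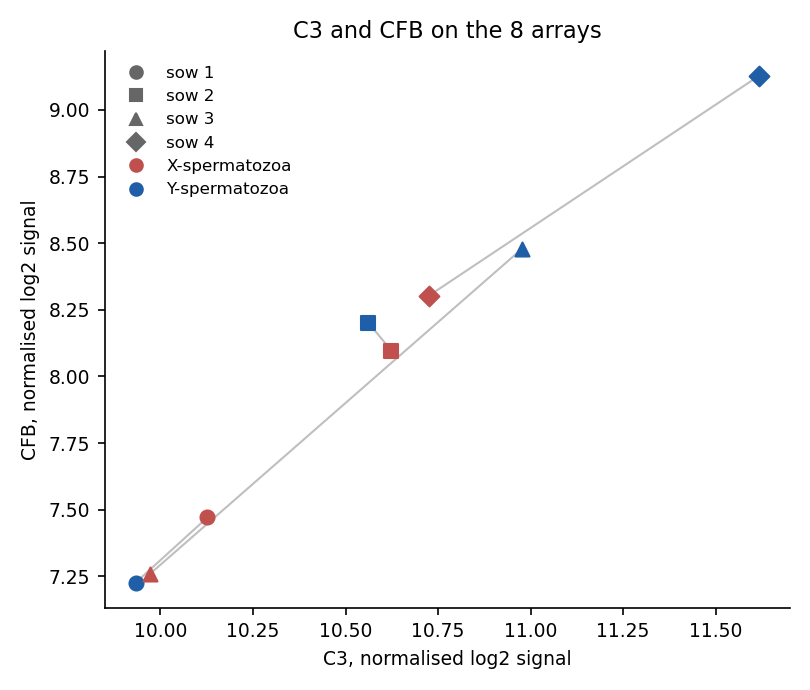
Normalised log2 signal of C3 (horizontal axis) and of the brighter CFB probe set (vertical axis) on the 8 arrays; colour gives the sperm type, the shape of the symbol the sow, and a line joins the 2 oviducts of a sow. The arrays lie along 1 line (Pearson r 0.99), with Y4 at the upper end and X3 and both oviducts of sow 1 at the lower end.

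Among 8266 probe sets of other genes above background, CFB was the one whose pattern was most like that of C3, with a Pearson r of 0.989 over 8 arrays from 4 sows and a Spearman rho of 0.976. Without sow 4, which held the highest array, r was 0.987. Arrays of 1 sow share the animal, so these coefficients describe the arrays and carry no p. The next gene was ADD3, an adducin of the membrane skeleton, with r 0.9746 to C3 and 0.972 to CFB. C2 and CFB are paralogues that lie side by side in the pig gene table, with 0 protein-coding genes between them, yet the C2 readings were lowest in X2 and X4, where C3 and CFB were the highest of the X arrays.

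The secreted regulators did not pass the test. SERPING1, the inhibitor of C1R and C1S, read 304.0, 385.8, 391.7 and 309.6 in X1 to X4 and 303.2, 462.9, 428.9 and 409.4 in Y1 to Y4. After normalisation the Y side was the higher one in 4 of 4 sows, by 0.00, 0.26, 0.11 and 0.39, so sow 1 was level in practice and the deposited signals of that sow ran the other way. The group means were 348 ± 47.4 and 401 ± 68.9 (SD, n = 4), with a difference of 0.19 (SE 0.17, 95% interval -0.21 to 0.59, exact p = 0.229).

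CLU read 4599.3, 4054.0, 4398.0 and 4172.6 after X-spermatozoa and 5638.7, 4186.1, 5228.9 and 5304.0 after Y-spermatozoa. On the deposited scale it was higher on the Y side in every sow, although Y2 lay inside the X range, and the means were 4306 ± 242 and 5089 ± 628 (SD, n = 4). The size of its difference depended on the scaling: it was 0.07 (SE 0.16, exact p = 0.657) after quantile normalisation, 0.23 on the deposited scale and 0.27 with the arrays centred on their medians, and it passed the limma threshold under none of the 3. The spiked hybridisation controls, which hold no oviduct RNA, were also brighter in the Y arrays, at 9.98 ± 0.09 against 9.69 ± 0.10 on the log2 scale as deposited (exact permutation p = 0.0286, two-sided, the smallest that 4 arrays against 4 allow). After normalisation those controls were at 9.73 ± 0.07 in the X arrays and 9.94 ± 0.10 in the Y arrays (exact permutation p = 0.0571). When that normalised level entered the model, the CLU difference was -0.10. The level largely followed the sperm type, so the model could hardly separate it from the sperm type.

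**Figure D3:**
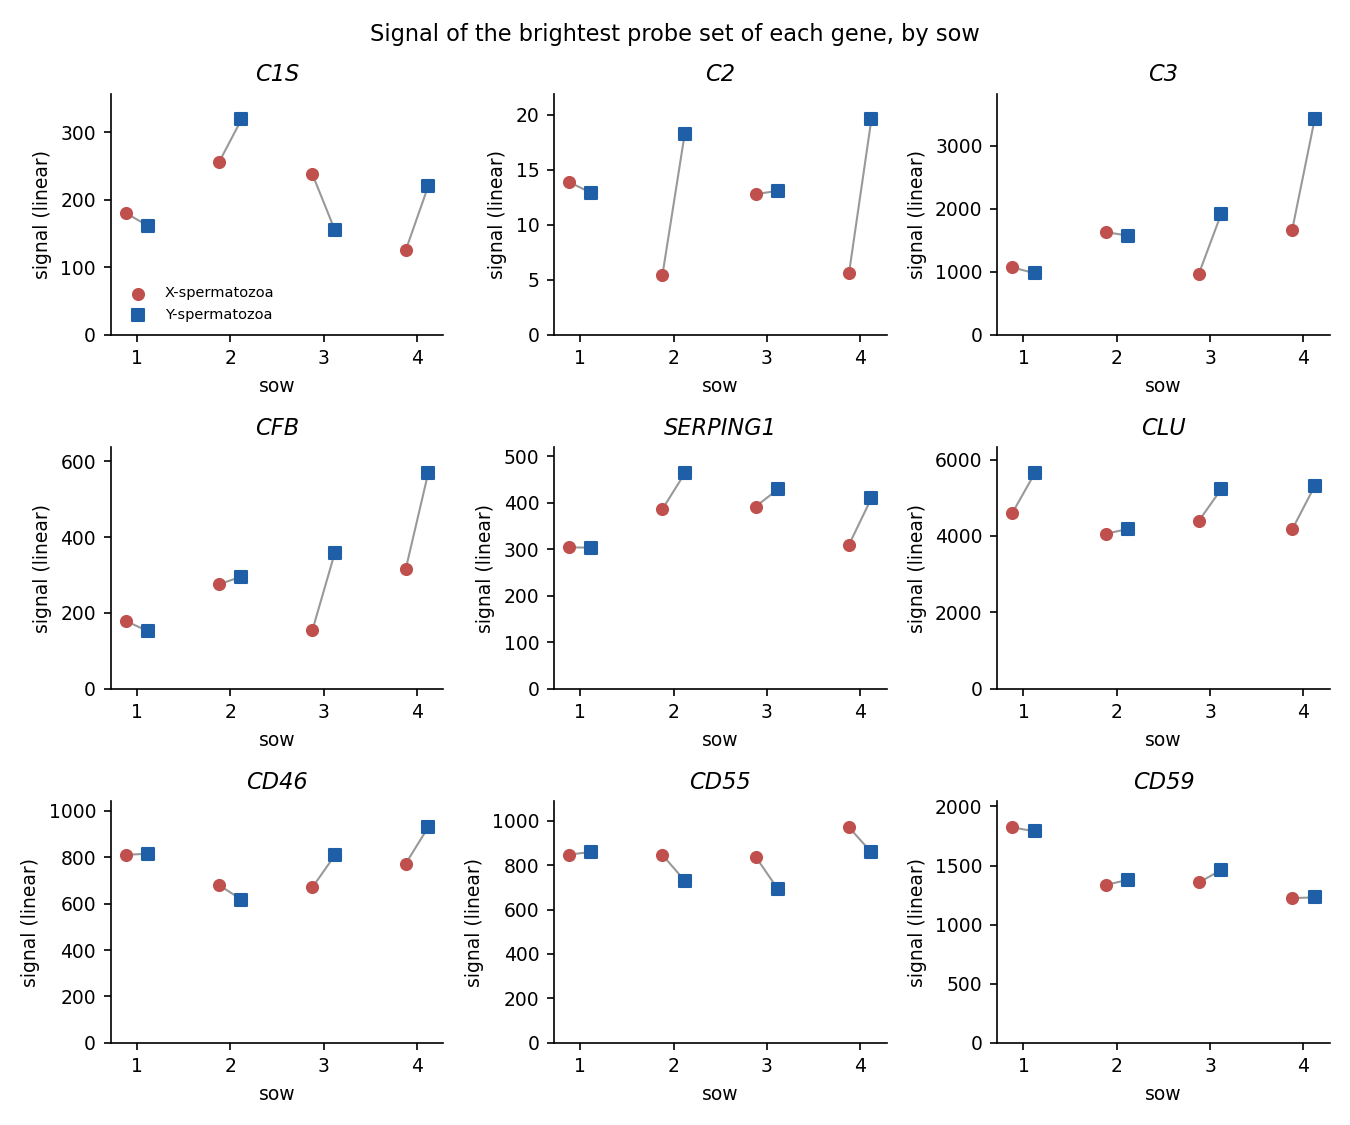
Deposited linear signal (vertical axis, from 0) of the brightest probe set of each of the 9 genes, by sow (horizontal axis), with red circles for the oviduct that received X-spermatozoa and blue squares for the one that received Y-spermatozoa, joined by a line. C3 and CFB share their outline with a peak at Y4 in sow 4, C2 is separated in sows 2 and 4, and CD59 is nearly equal in both oviducts of every sow.

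Among the membrane regulators, CD55 had the lower readings after Y-spermatozoa, while no CD46 or CD59 probe set passed the test. All 5 CD55 probe sets had a lower mean on the Y side, 1 of 5 passed the unadjusted test, and 2 of 5 were lower in all 4 sows. The study lists CD55 among its altered genes from these same arrays, and the 5 probe sets read 1 gene, so their shared direction is not independent evidence. Their correlations over the 8 arrays ran from 0.398 to 0.894.

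The dimmest CD55 probe set, the one that passed, read 82.5, 80.7, 63.3 and 64.2 in X1 to X4 and 63.2, 36.9, 48.5 and 47.8 in Y1 to Y4. The deposited groups just failed to overlap, at 63.3 for the lowest X array and 63.2 for the highest Y array, as happened for 2.30% of all probe sets, and after normalisation they overlapped. The means were 72.7 ± 10.3 and 49.1 ± 10.8 (SD, n = 4). Every sow was lower on the Y side, by -0.39, -1.09, -0.36 and -0.42, and the mean difference was -0.56 (SE 0.18, 95% interval -0.99 to -0.13). It passed in limma (unadjusted p = 0.0166, and p = 0.0234 with the sow as a block) and not in the exact permutation test (p = 0.0571). The limma p stayed at 0.0459 or lower when any single array was left out. When the normalised level of the hybridisation controls entered the model, the difference was -0.98. That level largely followed the sperm type, so this value is not a firmer estimate than the one without it.

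The second-brightest CD55 probe set, the one on the study's list, read 436.3, 274.9, 392.3 and 612.6 after X-spermatozoa and 312.9, 277.5, 251.7 and 322.5 after Y-spermatozoa. X4 was the highest array, sow 2 was level, and the difference was -0.51 (SE 0.24, 95% interval -1.08 to 0.05). It did not pass in limma (unadjusted p = 0.0673) or in the exact permutation test (p = 0.114), and passed in limma with the sow as a block (p = 0.0443). With that block, 2 of the 17 member probe sets passed, both of them CD55, against 5.09% of all probe sets.

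The brightest CD55 probe set read 847.6, 846.3, 837.8 and 970.2 against 859.7, 730.3, 690.7 and 857.8, a difference of -0.20 (SE 0.12, exact p = 0.143). Of its Y arrays, Y1 and Y4 lay inside the X range and Y2 and Y3 below it. Of the remaining CD55 probe sets, the third in brightness differed by -0.16 (exact p = 0.457) and the fourth by -0.21 (exact p = 0.257). Sow by sow, 3 of the 5 CD55 probe sets were lower on the Y side in sow 1, 4 in sow 2, and all 5 in sows 3 and 4. Sow 1 gave the exception that stood out most, at 276.0 in X1 and 332.0 in Y1 for the third probe set.

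**Figure D4:**
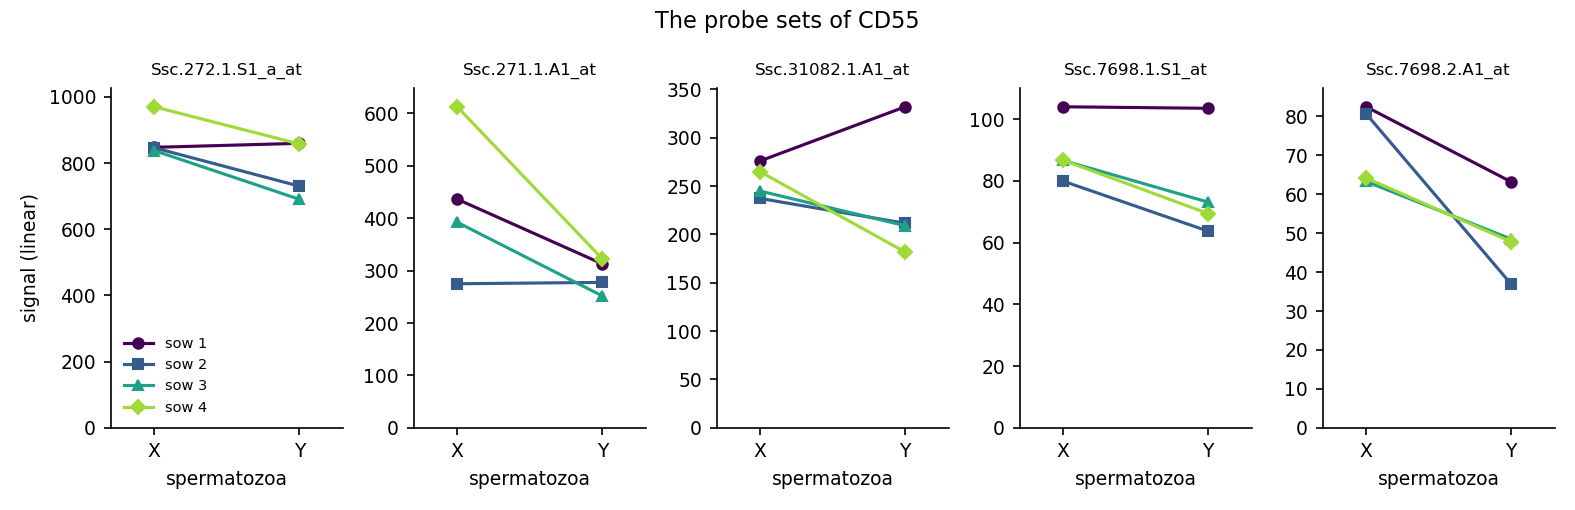
Deposited linear signal (vertical axis, from 0) of the 5 CD55 probe sets after X- and Y-spermatozoa (horizontal axis), 1 panel each from the brightest to the dimmest, with a symbol and colour for each sow and a line joining its oviducts. In the dimmest probe set the Y oviduct is the lower one in all 4 sows, and in the third sow 1 is reversed, with 276.0 on the X side and 332.0 on the Y side.

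CD46 had no probe set past the test. The brightest one read 811.0, 679.7, 670.5 and 772.8 in X1 to X4 and 815.1, 617.8, 808.5 and 929.1 in Y1 to Y4, with Y2 the lowest and Y4 the highest of all arrays and a difference of 0.09 (SE 0.15, exact p = 0.629). The dimmest differed by 0.21 (SE 0.15, exact p = 0.114), from 59.8 ± 8.94 to 68.5 ± 7.10 (SD, n = 4). The middle one read 89.4, 56.6, 53.4 and 99.5 against 73.8, 52.9, 47.2 and 133.9, a difference of -0.01 (SE 0.38, exact p = 1.00). Sows 1, 2 and 3 were lower on the Y side, by -0.27, -0.06 and -0.14, and sow 4 was higher by 0.44. On both sides it was high in sows 1 and 4 and low in sows 2 and 3.

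The brighter CD59 probe set was the one of the 17 whose values were most alike in the 2 oviducts of a sow. This probe set read 1823.2, 1336.0, 1357.1 and 1224.9 after X-spermatozoa and 1789.1, 1379.3, 1462.9 and 1230.1 after Y-spermatozoa, high in both oviducts of sow 1 and low in both of sow 4. The oviducts of 1 sow differed by 0.04 on average on the log2 scale after normalisation, while the sow means spanned 0.70. The difference between sperm types was -0.02 (SE 0.21, exact p = 0.857), and its sign turned to 0.07 with median centring and 0.03 on the deposited scale. The dimmer probe set differed by -0.08 (SE 0.14, exact p = 0.514), and its oviducts of 1 sow were 0.23 apart on average.

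The paired oviducts also allowed the spread between sows to be tested against the spread within them, with sperm type in the model. The unadjusted moderated F test between sows was passed by 2 of the 17 member probe sets, the middle one of CD46 and the brighter one of CD59, against 14.2% of all probe sets. None passed after adjustment over all probe sets (0.00% of all), where the CD46 probe set had adjusted p = 0.251 and the CD59 probe set adjusted p = 0.260. When the test was limited to the brighter part of the array, 11999 probe sets, 2 of 15 member probe sets passed, CD46 with adjusted p = 0.0214 and CD59 with adjusted p = 0.0447, against 7.46% of those tested. The first count lay near the background share, and the adjusted calls rest on which probe sets enter the adjustment.

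The other genes of the cascade were described from a list of 56 further complement genes, of which 27 had a probe set with that symbol alone and 20 were above background on average. None of the 27 passed the unadjusted test in limma, 15 were higher and 12 lower on the Y side, and their median difference was 0.10. Of the 20 above background 12 were higher and 8 lower, with a median of 0.13 against 0.00 over all probe sets. With the sow as a block 1 of the 27 passed, C8A, which was below background on all 8 arrays and is not one of the genes chosen by the naming rule.

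C8G, the small subunit of the eighth component, came nearest to the threshold, with a difference of 0.80 (exact p = 0.0571). Its mean was under the average background of 10.3 after X-spermatozoa and 15.6 ± 3.54 (SD, n = 4) after Y-spermatozoa. Of the classical pathway, C1QA, which was below background on 2 X arrays, differed by 0.46 (exact p = 0.314) and C1R by 0.15 (exact p = 0.571). The receptor gene CR1, which binds C3b, differed by 0.61 (exact p = 0.343), but was below background on 3 X arrays and 1 Y array. ITGB2, the beta chain of complement receptors on leukocytes, differed by 0.35 (exact p = 0.229).

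The fluid regulators went both ways. C4BPA, which with C4BPB forms the C4b-binding protein, read 74.6 ± 17.8 and 87.1 ± 19.3 (SD, n = 4), a difference of 0.24 (exact p = 0.371). C4BPB, which was below background on 1 X array, differed by 0.45 (exact p = 0.457). Vitronectin (VTN), which like clusterin binds the forming pore, read 23.2 ± 3.68 and 17.9 ± 7.15, a difference of -0.38 (exact p = 0.286). The pattern recognition protein PTX3 differed by -0.18 (exact p = 0.457), and CFD, the protease that activates factor B, by 0.10 (exact p = 0.629). C5AR1 and CFI had no probe set with their symbol alone in the annotation and were not analysed here.

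**Figure D5:**
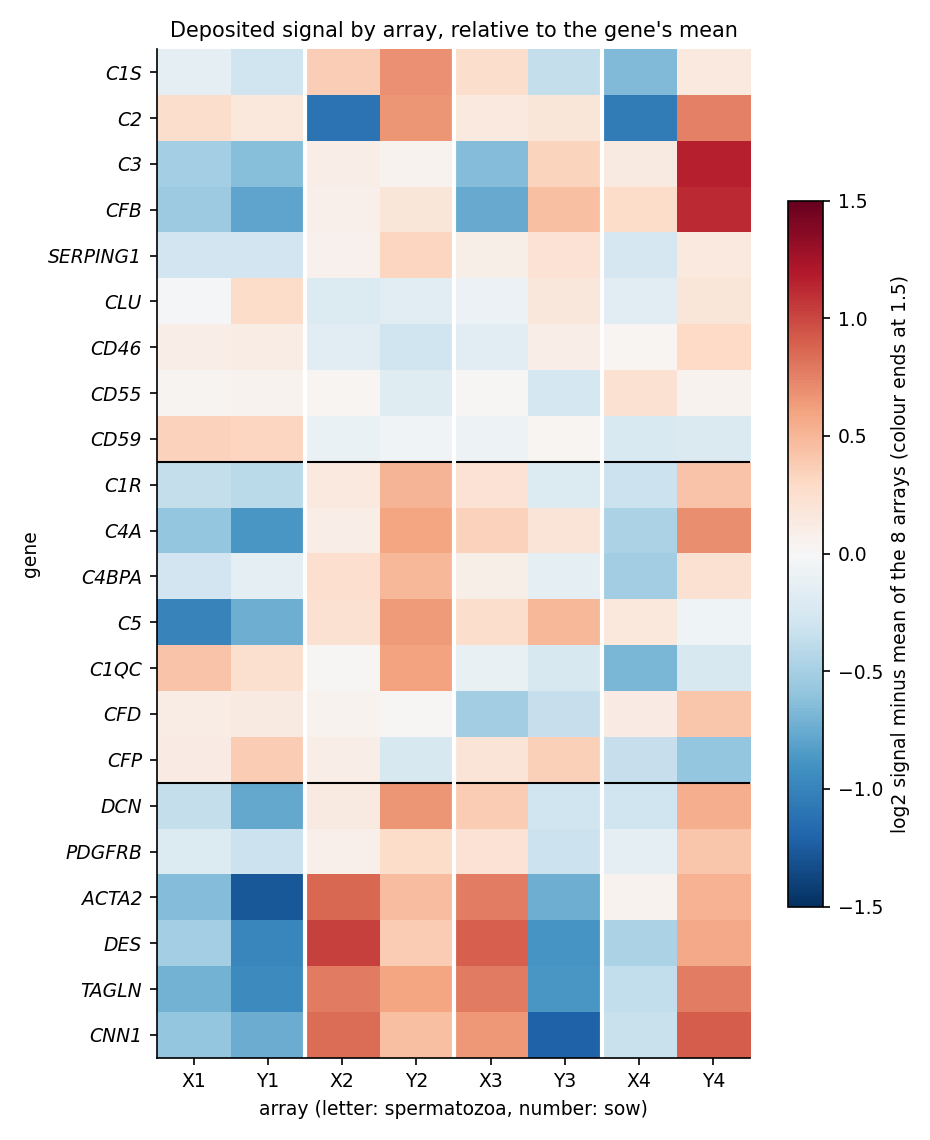
Deposited log2 signal of each gene on each array minus the mean of that gene over the 8 arrays (colour), for the members, 7 other complement genes and the 6 stroma and smooth muscle genes that were brightest in the same arrays as C1S, with arrays ordered by sow, X before Y. C3 and CFB are highest in Y4, and C1S, C1R, C4BPA and the stroma genes are brightest in X2, X3, Y2 and Y4.

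Markers of other cells were read beside these genes. Leukocyte list genes summed to 174.4 to 176.5 in the X arrays and 168.3 to 245.6 in the Y arrays, with 6 of 12 measured genes above background. Its pan-leukocyte gene PTPRC (CD45) passed the unadjusted limma test upward, at 7.15 ± 1.75 and 11.6 ± 3.06 (SD, n = 4), close to background. It did not pass the exact test (p = 0.0571). No other gene of the list passed in limma, where 3.56% of all probe sets did. CD3E (-0.21), CD3G (-0.11), CD2 (-0.71), CD79B (-0.67) and CD4 (-0.02) were lower on the Y side. CD3D (0.99), ITGAM (0.59), CD14 (0.36), AIF1 (0.26), CD8A (0.23) and CD163 (0.06) were higher. Neutrophil genes had 1 of 5 above background and endothelial genes summed to 277.4 to 398.2 against 239.6 to 469.1. In the red blood cell list HBM passed upward in limma, at 22.3 and 41.0, but not in the exact test (p = 0.0857). HBB, the brightest of that list, was lower on the Y side in 4 of 4 sows (-0.08). HBE1 (-0.24) and AHSP (-0.33) were lower and ALAS2 (0.44) was higher. The sums of the list overlapped (241.5 to 280.4 and 246.0 to 297.9). Lining epithelium genes summed to 16358.2 to 19345.3 against 19181.2 to 20260.0, and 0 of 12 passed. These sums are on the deposited scale. After normalisation OVGP1, the brightest of the list, differed by 0.02 and EPCAM, the next, by -0.01. The 12 genes ran from -0.21 (MUC1) to 0.19 (KRT18). The part of these cells in the C2 and CD55 differences was not tested.

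The genes most like the other members were described in the same way, over the 8 arrays and without p. C1S was most like OAZ1 (r 0.967) and ISCU (r 0.949), C2 like INTS12 (0.924) and STAMBPL1 (0.903), and SERPING1 like DYNLRB1 (0.984) and SLC25A3 (0.967). CLU was most like CTTNBP2 (0.963) and JUP (0.959), CD46 like SRP19 (0.986) and KIF21A (0.973), CD55 like LIMS1 (0.948) and FAT1 (0.938), and CD59 like CDC5L (0.983) and SMIM7 (0.977). No member apart from C3 and CFB had another complement gene among its 2 most alike genes. With this many candidates and 8 arrays, coefficients of this size describe these arrays only.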

How the data were processed

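RNA of 8 scraped oviduct linings (4 sows, 1 oviduct each with X- and Y-spermatozoa) was hybridised to Affymetrix Porcine arrays. The deposited values are linear intensity signals, made by the authors with MAS5 5.1 per the labels' processing notes and already on a common scale. The methods describe robust multichip averaging, which was not rebuilt here, and probe-level and qPCR data were not analysed here. All 24123 probe sets were quantile normalised, floored at 1 and taken to log2. The 124 AFFX controls were then left out (64 reporter probe sets stayed), which left 23999 probe sets. Group means were compared with limma 3.58.1 in R 4.3.3, two-sided, with Benjamini-Hochberg adjustment over all of them. Figures used Python 3.11.15 and matplotlib 3.10.9. The fitting script was tested on simulated data.

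Background was the 95th percentile of 81 probe sets without a pig target on each array. Names came from the platform annotation (10099 probe sets with 1 symbol), and all 17 member symbols matched the RefSeq gene table. The labels state that both oviducts of a sow were used. They number the arrays of each group from 1 to 4, without naming the sow, and arrays of the same number were taken as the same sow. The deviations of such a pair from their group means correlated weakly (r 0.132 to 0.187). Arrays of different number were not correlated for comparison, so these values do not test the pairing. Sequences were not printed, since no table used here holds them.

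Members and lists were chosen with earlier results of these data known. The genes named were all 9 members, up to 8 other complement genes above background with the smallest p, C1R, CFI, CFD, C4BPA, VTN and C5AR1 where measured, and the 2 genes most like each member; the brightest probe set stood for a gene. DES and other marker genes were named by their lists, and C8A and C5 after their values were seen. Alternatives were median centring, the deposited scaling, a pseudocount of 16, only bright probe sets, the sow as a block, a variance trend, array weights, the methods' t-test, the hybridisation controls as a covariate, AFFX probe sets kept, leaving out each array or sow and, chosen after the data had been seen, a floor at background and an exact permutation test over the arrays. The number of arrays limits the precision.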

Additional observations from a re-analysis of the deposited data

Results flagged for a closer look

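Of 74 groups of 4 arrays examined for the member probe sets and the 20 other complement genes above background, 2 held an array far from the other 3, and chance alone flags about 1 in 20. C5 read 47.5 in X1, where the other X arrays lay between 106.4 and 114.6. CFD read 339.6 in X3, where the other X arrays lay between 507.0 and 532.3. For both genes the other oviduct of the same sow was also the lowest of the Y arrays, at 57.4 in Y1 for C5 and 384.1 in Y3 for CFD. Neither gene passed the test between sperm types, and no member was among them.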

How the results depend on the processing

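The count of 2 member probe sets past the unadjusted p of 0.05 was 0 by the exact permutation test over the arrays (chosen after seeing the data), 1 with the methods' t-test and 1 with the brightest probe set of each gene only, and 3 with a pseudocount of 16, the sow as a random block or a variance trend, where the second-brightest CD55 probe set also passed. It ran from 0 (without sow 4, with the block) to 5 (without Y1) when arrays or sows were left out, and was 1 without X4, Y2 or Y4. The count of 0 other complement genes was 1 with a pseudocount of 16, with the sow as a block, as a random block, with the hybridisation control covariate and with the floor at background (chosen after seeing the data), and 0 to 3 with arrays or sows left out. The count of 0 members adjusted between sows was 2 with bright probe sets only and 0 without any 1 sow. The paired fit, with the sow as a block, took C2 out of the calls, added the second-brightest CD55 probe set and C8A, and changed no other call of a member or complement gene; of the marker genes it added VWF (endothelium) and ALAS2 (red blood cells). C2 missed the threshold under 12 of its settings, among them leaving out X2, X4, Y2 or Y4 or any sow. Its difference was 0.38 with the pseudocount and 1.98 with the covariate, which largely followed the sperm type. The dimmest CD55 probe set missed it in the exact test and without sow 1 or sow 4 in the paired fit. All 5 CD55 differences stayed below 0 in every setting.

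Signs turned for differences near 0. The middle CD46 probe set was 0.0025 with median centring, 0.0028 with the pseudocount, 0.011 with array weights, 0.033 with the covariate, -0.32 to 0.19 without 1 array, and 0.080, 0.010 and 0.039 in the paired fit without sow 1, 2 or 3. The brighter CD59 probe set was 0.067 with median centring, 0.033 on the deposited scale and with the floor at background, and -0.15 to 0.12 without 1 array. With the covariate the dimmer CFB probe set was 0.11, CLU -0.10 and the brightest CD46 probe set -0.059. Without 1 array, CFB (dimmer) was -0.53 to 0.14, CLU -0.0077 to 0.19 and C1S -0.13 to 0.22. In the paired fit, CFB (dimmer) was 0.097 without sow 1, the dimmer CD59 probe set 0.023 without sow 2 and C1S -0.15 without sow 4. The cause of these changes was not tested.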

Other observations

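The genes listed for spermatozoa summed to 1318.5 to 1782.4 in the X arrays and 1325.6 to 1911.1 in the Y arrays, with 4 of 7 measured genes above background. Most of that sum was SPA17 alone, at 1255.8 to 1850.5, and the next brightest, ZPBP, read 14.2 to 38.7. The sum is therefore no measure of sperm RNA, and the source of the SPA17 signal was not tested. PRM1, a protamine of sperm chromatin, passed the unadjusted limma test upward, at 1.05 on average after X-spermatozoa and 2.35 after Y-spermatozoa, which is below background in both groups. It also passed the exact permutation test (p = 0.0286), and its adjusted limma p was 0.883. No other gene of the spermatozoa list passed in limma. Genes of ciliated cells, 4 of 4 measured above background, summed to 4917.7 to 5305.8 and 5056.6 to 5952.5, and none passed.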
